A study of Homo sapiens with 12 samples.

Results

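Interferon-stimulated genes are the genes that cells switch on when interferon binds its receptors, and 39 of them were followed here in CFPAC-1 and BxPC-3 cells, both established human cell lines from pancreatic ductal adenocarcinoma. The members are the rows of the deposited expression table whose gene symbol stands in a list of 39 symbols, found once each among 60564 genes. Of the 39, 34 reached 1 FPKM (fragments per kilobase of transcript, scaled to the mapped total) in at least 3 of the 12 libraries. These 34 were tested within a fit of 12860 genes. The other 5 (MX1, IFI44L, RSAD2, XAF1 and EPSTI1) are given as levels only.

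Total RNA was sequenced from each line in normal culture (the control groups) and after 48 h without serum, a treatment that makes cells grow primary cilia (the groups labelled cilia), with 3 libraries in each of the 4 groups. The design text gives 7% of control and 39% of starved CFPAC-1 cells as ciliated, and 5% and 78% of BxPC-3 cells, without errors. Within each line, no genotype or drug in the labels distinguishes the groups, and the labels name no interferon treatment. Every cilia library was both starved and ciliated, so the effects of starvation and of cilia cannot be told apart. Nothing in the labels says that the 3 libraries of a group are separate cultures, so p-values speak only of variation among these libraries, which could be technical. In bulk RNA, fewer cells expressing a gene and less RNA per cell cannot be told apart.

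In a cell that meets interferon, receptor-bound JAK kinases phosphorylate transcription factors of the STAT family. The complex that contains STAT2 and IRF9 binds the interferon-stimulated response element, while other STAT pairs bind the gamma-activated site. The genes that follow make antiviral proteins: sensors and degraders of viral RNA, inhibitors of virus entry and release, the ubiquitin-like protein ISG15 and parts of the antigen-processing machinery.

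The libraries did not all group by label. Summed FPKM was between 258299 and 315377 per library, and the depth in reads is unknown. Mitochondrial genes took 11.6% to 33.98% of the summed FPKM. The lowest share was in CFPAC-1 cilia 1 and the highest in CFPAC-1 control 1, against 19.9% in each of CFPAC-1 control 2 and 3. Across the tested genes, CFPAC-1 control 2 and 3 correlated with each other at r = 0.990 and with the CFPAC-1 cilia libraries at a mean of 0.799, whereas control 1 correlated with control 2 and 3 at a mean of 0.814 and with the cilia libraries at 0.932. Control 1 is therefore shown apart, and CFPAC-1 results are given with and without control 2 and 3. Without them control 1 is the only CFPAC-1 control, and the part of its mitochondrial share in those results was not tested. Whether these 2 libraries carry the right label was not tested, and every CFPAC-1 control value and every comparison with it, between the lines too, rests on the labels. Epithelial markers did not move together across that split. EPCAM was at 14.8 FPKM in control 1 and 0.963 and 1.04 FPKM in control 2 and 3, and KRT19 at 532 against 7.42 and 7.67 FPKM. The keratins KRT8 (274, 270.3 and 316 FPKM in controls 1, 2 and 3) and KRT18 (254, 318 and 311 FPKM) were within 1.5 times of each other in the 3 controls, and the ductal factor SOX9 was higher in control 2 and 3 (17.9, 55.1 and 53.03 FPKM). The summed level of 10 ductal epithelial markers was 661 to 1109.6 FPKM in CFPAC-1 control. CDH1, the epithelial cadherin, was under 1 FPKM in every CFPAC-1 library and at 38.2 to 61.04 FPKM in BxPC-3.

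RefSeq promoter windows (GRCh38.p14, 250 bases before to 50 after the gene start) were found for 32 of the 39 members. The core of the response element, GAAA, any 2 bases, then GAAA again, was searched on both strands, and tandem copies may overlap. It was in a window of 22 of the 32 members (68.75%), against 4.38% of 27305 genes and 3.57% of 35116 windows. The gamma-activated site TTCNNNGAA, which reads the same on both strands and may overlap the first motif, was in 12 of the 32 (37.5%), against 9.38% of genes and 7.66% of windows. A match describes letters and is no evidence of binding.

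The promoters of 5 members are shown: BST2, IFI6 and IFI44 for their changes in CFPAC-1, ISG15 for its high level in both lines, and IFI27 for its difference between the lines. Each stretch starts 180 bases before the RefSeq start and ends at that start or, where an exon of the gene in GENCODE release 29 begins earlier, before that exon. The stretches of ISG15 and IFI27 lie in introns of longer GENCODE transcripts of these genes, whose annotated starts are at 1001138 and 94104836. It reads 5′ to 3′ on the gene's strand, with the response-element cores of either strand in capitals.
BST2, chr19:17405649-17405810, minus strand: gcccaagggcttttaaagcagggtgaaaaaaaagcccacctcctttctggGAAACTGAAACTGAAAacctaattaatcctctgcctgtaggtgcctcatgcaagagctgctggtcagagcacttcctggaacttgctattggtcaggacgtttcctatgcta
IFI6, chr1:27672219-27672372, minus strand: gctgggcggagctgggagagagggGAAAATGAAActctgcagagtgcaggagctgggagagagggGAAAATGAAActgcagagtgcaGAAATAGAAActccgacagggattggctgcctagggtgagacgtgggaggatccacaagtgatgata
IFI44, chr1:78649609-78649788, plus strand: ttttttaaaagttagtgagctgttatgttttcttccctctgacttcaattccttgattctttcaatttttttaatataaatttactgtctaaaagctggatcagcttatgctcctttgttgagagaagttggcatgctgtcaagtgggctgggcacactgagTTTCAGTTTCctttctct
ISG15, chr1:1013317-1013422, plus strand: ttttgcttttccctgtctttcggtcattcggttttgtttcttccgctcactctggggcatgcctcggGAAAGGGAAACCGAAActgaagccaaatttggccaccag
IFI27, chr14:94110556-94110677, plus strand: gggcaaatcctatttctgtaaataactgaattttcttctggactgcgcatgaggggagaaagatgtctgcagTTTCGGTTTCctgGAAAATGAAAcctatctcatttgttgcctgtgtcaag
BST2 and ISG15 each carry 2 overlapping cores in tandem, and IFI6 carries 3 separate ones. IFI44 has 1 core, on the opposite strand, and IFI27 has 2 cores on opposite strands. Promoters with these shared letters belonged to genes of very unlike level: ISG15 was high in both lines, while IFI27 was under 0.5 FPKM in every CFPAC-1 library.

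**Figure D1:**
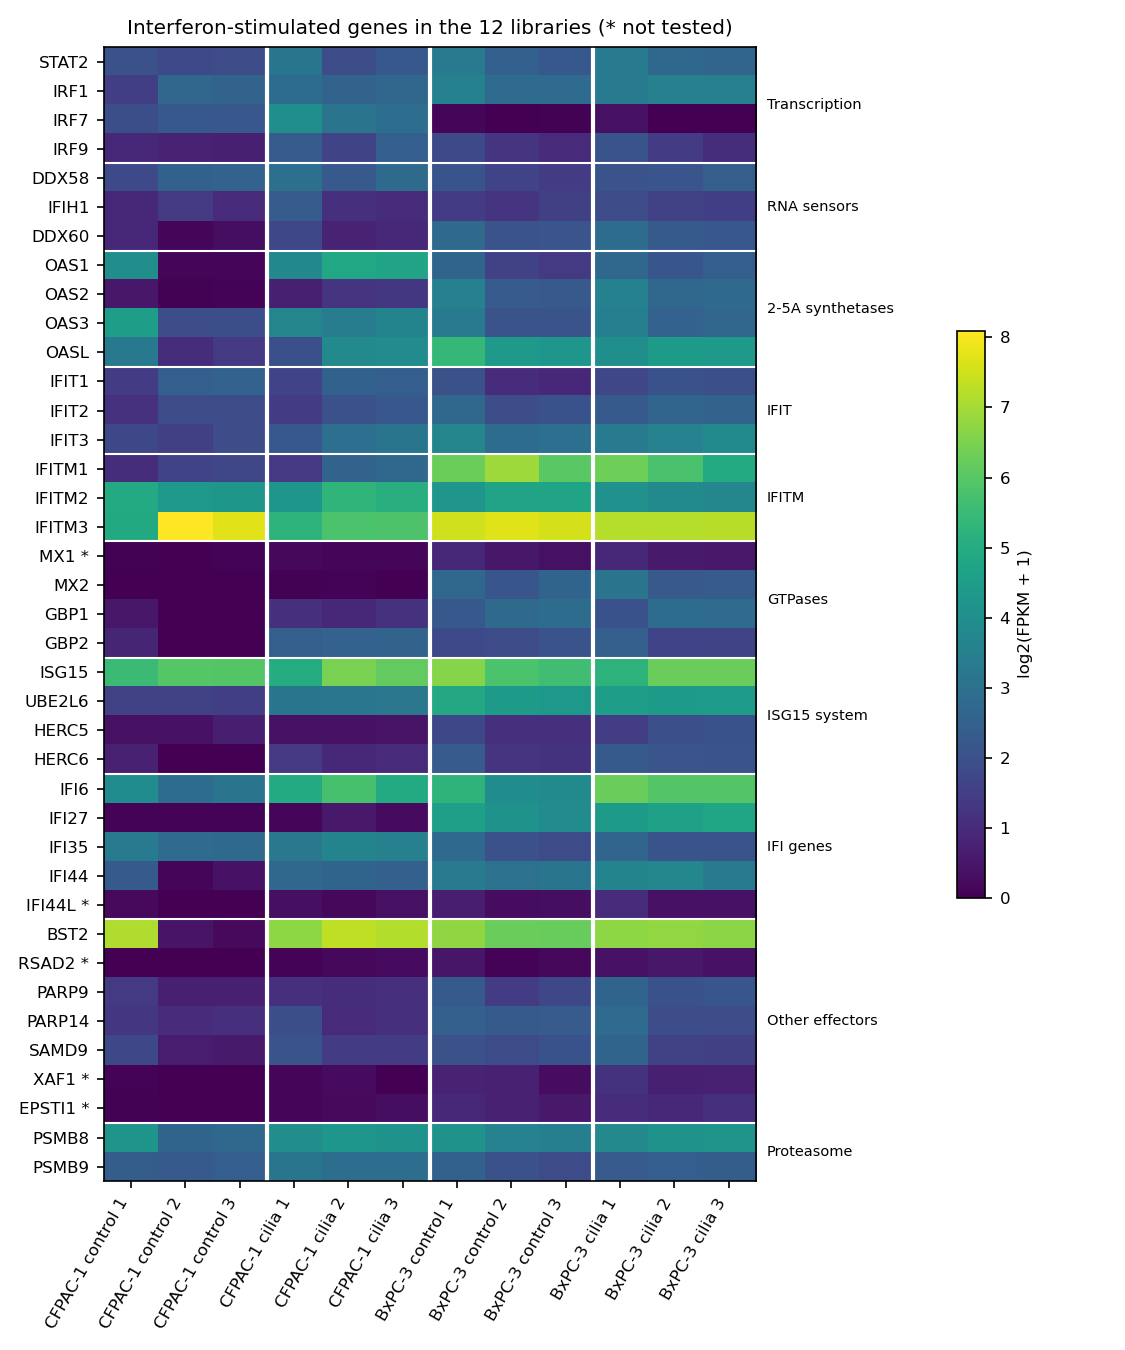
Each row is 1 of the 39 members, grouped by role, each column is 1 of the 12 libraries, and the colour is the level as log2(FPKM + 1). BST2 is low in CFPAC-1 control 2 and 3 but not in control 1.

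In CFPAC-1, 11 of the 34 tested members rose between control and cilia at an adjusted p under 0.05 and 0 fell, beside 7.85% of all tested genes that rose and 8.77% that fell. The 11 were BST2, OAS1, GBP2, IFI6, IFI44, UBE2L6, IRF9, IRF7, IFIT3, GBP1 and PSMB9, which come from 8 of the 10 role groups. The median change of the 34 was 0.68 in log2(FPKM + 1), against -0.09 over all tested genes. Of the 34 changes 32 were positive, beside 43.7% of all tested genes. Without control 2 and 3, only GBP2 and UBE2L6 of the 11 passed, beside 1.06% of all genes that rose and 0.669% that fell, and the median of the 34 was 0.45. That fit lends the single remaining control the spread of the other groups. All tests are two-sided limma tests whose p-values were adjusted by Benjamini-Hochberg across 12860 genes, and log2(FPKM + 1) differences are smaller than true log2 ratios for genes of low FPKM.

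UBE2L6 and GBP2 rose with and without control 2 and 3. UBE2L6 is the E2 enzyme that loads ISG15 onto its targets. Its controls lay close together, with 1.98, 2.02 and 1.84 FPKM, and the cilia libraries had 7.94, 7.97 and 8.18 FPKM. The mean went from 1.94 ± 0.0953 (SD, n = 3) to 8.03 ± 0.133 FPKM (SD, n = 3), a log2 change of 1.62 (95% interval 1.25 to 1.99, adjusted p = 0.000596) with all libraries and 1.60 (1.05 to 2.15, adjusted p = 0.0162) without control 2 and 3. GBP2 is a guanylate-binding GTPase of defence inside the cell. Controls 1, 2 and 3 had 0.777, 0.0162 and 0.00755 FPKM of it and the cilia libraries 4.52, 4.897 and 4.97 FPKM, again without overlap. Its change was 2.25 (1.66 to 2.83, adjusted p = 0.00111), and 1.70 (1.00 to 2.41, adjusted p = 0.0337) without control 2 and 3.

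The other 3 genes of the ISG15 system did not pass. ISG15 itself, the ubiquitin-like modifier, had 44.5, 61.9 and 60.4 FPKM in the controls and 31.4, 87.3 and 70.8 FPKM in the cilia libraries. Cilia 1 lay below all 3 controls and cilia 2 and 3 above them, and the change of 0.07 had a 95% interval of -0.82 to 0.97. HERC5, the main ISG15 ligase, was under 0.7 FPKM in all 6 libraries (change -0.11, -0.59 to 0.38). HERC6, its neighbour on chromosome 4, had 0.662, 0.00617 and 0 FPKM in the controls and 1.52, 0.871 and 1.0002 FPKM in the cilia libraries, a change of 0.83 (adjusted p = 0.077).

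BST2, or tetherin, holds budding viruses at the cell surface, and it had the largest change of the 34. It had 139, 0.335 and 0.142 FPKM in controls 1, 2 and 3 and 104, 159 and 143 FPKM in the cilia libraries. Control 1 lay among the cilia libraries, so the groups overlapped. The change was 4.49 (SE 1.37, adjusted p = 0.0462), and -0.06 (-0.72 to 0.59, adjusted p = 0.963) without control 2 and 3. BISPR, a noncoding gene that starts beside BST2 on the other strand and was looked up after the BST2 values were seen, was at 1.403 FPKM in control 1, 0.0707 and 0.141 FPKM in the other controls, and 1.52, 0.764 and 1.23 FPKM in the cilia libraries. Both genes were lowest in control 2 and 3.

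Of the 4 genes of the 2-5A synthetase family, OAS1 rose and the others did not pass. OAS1 makes 2-5A, the messenger that activates RNase L to cut RNA. The controls had 14.9, 0.107 and 0.1099 FPKM of it and the cilia libraries 12.9, 27.95 and 25.8 FPKM, with control 1 above cilia 1. Its change was 3.04 (1.20 to 4.87, adjusted p = 0.0332), and 0.48 (-0.67 to 1.63, adjusted p = 0.698) without control 2 and 3. OAS3 and OAS2 follow OAS1 on chromosome 12. OAS3 had 22.01, 2.74 and 2.88 FPKM and then 11.9, 9.56 and 11.6 FPKM, control 1 being the highest of the 6, and its change was 0.79 (adjusted p = 0.378). OAS2 reached at most 1.48 FPKM (change 0.86, adjusted p = 0.104). OASL, the member without synthetase activity, had 8.76, 1.07 and 1.599 FPKM in the controls and 2.96, 13.5 and 13.9 FPKM in the cilia libraries, with cilia 1 below control 1 (change 1.34, adjusted p = 0.144).

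Of the 4 transcription factors, IRF9 and IRF7 rose and STAT2 and IRF1 did not pass. IRF9, the DNA-binding partner of STAT2, had 0.866, 0.7502 and 0.633 FPKM in the controls and 4.12, 2.15 and 4.36 FPKM in the cilia libraries (change 1.34, adjusted p = 0.0163). IRF7, which drives interferon-alpha genes, had 2.86, 3.696 and 3.58 FPKM and then 15.3, 7.64 and 6.67 FPKM (change 1.23, adjusted p = 0.0117). For both, every cilia library was above every control. Without control 2 and 3 the changes were 1.25 for IRF9 (adjusted p = 0.183) and 1.41 for IRF7 (adjusted p = 0.0855), of similar size but not past the threshold. IRF1, a factor for both interferon types, had 1.86, 5.43 and 5.04 FPKM in the controls, lowest in control 1, and 6.204, 5.01 and 5.37 FPKM in the cilia libraries. Its change was 0.44 (adjusted p = 0.318), and 1.18 (adjusted p = 0.0763) without control 2 and 3. STAT2 had a change of 0.54 (adjusted p = 0.295).

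Among the IFI genes, named for induction by interferon, IFI6 and IFI44 rose. IFI6, a small membrane protein that limits cell death and virus replication, had 14.2, 6.21 and 7.75 FPKM in the controls and 29.6, 52.7 and 30.1 FPKM in the cilia libraries, without overlap. Its change was 1.91 (1.04 to 2.78, adjusted p = 0.0117), and 1.28 (0.12 to 2.45, adjusted p = 0.228) without control 2 and 3. IFI44 had 3.86, 0.0893 and 0.316 FPKM and then 5.65, 5.17 and 4.55 FPKM, also without overlap, but control 1 was far nearer to the cilia libraries. Its change of 1.68 (adjusted p = 0.0276) was 0.33 (adjusted p = 0.522) without control 2 and 3. IFI35 (0.50) and IFI27 (0.25) did not pass.

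IFIT3, GBP1 and PSMB9 complete the 11. IFIT3, a partner of the RNA-binding protein IFIT1, had 2.41, 1.88 and 2.795 FPKM in the controls and 3.65, 6.77 and 7.85 FPKM in the cilia libraries (change 1.03, adjusted p = 0.0333, and 1.01, adjusted p = 0.234, without control 2 and 3). GBP1, a GTPase related to GBP2, was at 0.439 FPKM in control 1, listed at 0 in control 2 and 3, and at 1.17, 0.871 and 1.21 FPKM in the cilia libraries (change 0.88, adjusted p = 0.0448, and 0.53, adjusted p = 0.499). PSMB9, a catalytic subunit of the immunoproteasome, had 4.23, 3.92 and 4.403 FPKM and then 7.91, 6.55 and 6.53 FPKM (change 0.62, adjusted p = 0.0396, and 0.61, adjusted p = 0.256). In these 3 genes every cilia library was above every control. PSMB8, another such subunit, had 17.4, 5.11 and 5.49 FPKM and then 15.01, 18.2 and 16.6 FPKM, with control 1 above cilia 1 and 3 (change 0.96, adjusted p = 0.0858). PSMB8 (chromosome 6, 32840717 to 32844703) and PSMB9 (32844136 to 32859585, GRCh38) overlap on opposite strands, and with the use of strand unknown reads there cannot be told apart.

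The IFITM proteins stop viruses from fusing with cell membranes, and IFITM3 had the most negative change of the 34, though it did not pass. Controls 1, 2 and 3 had 29.5, 273 and 209.8 FPKM of IFITM3 and the cilia libraries 36.9, 55.3 and 56.1 FPKM. Control 1 was the lowest of the 6 libraries, and control 2 and 3 the highest. The change was -1.29 (-2.65 to 0.08, adjusted p = 0.16), and 0.70 (0.13 to 1.27, adjusted p = 0.186) without control 2 and 3. IFITM1 and IFITM2 had changes of 0.74 and 0.37. The 3 genes are neighbours of related sequence on chromosome 11. The annotated IFITM2 (307631 to 315272) runs to the end of IFITM1 (313506 to 315272), so the single values of these genes are uncertain.

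**Figure D2:**
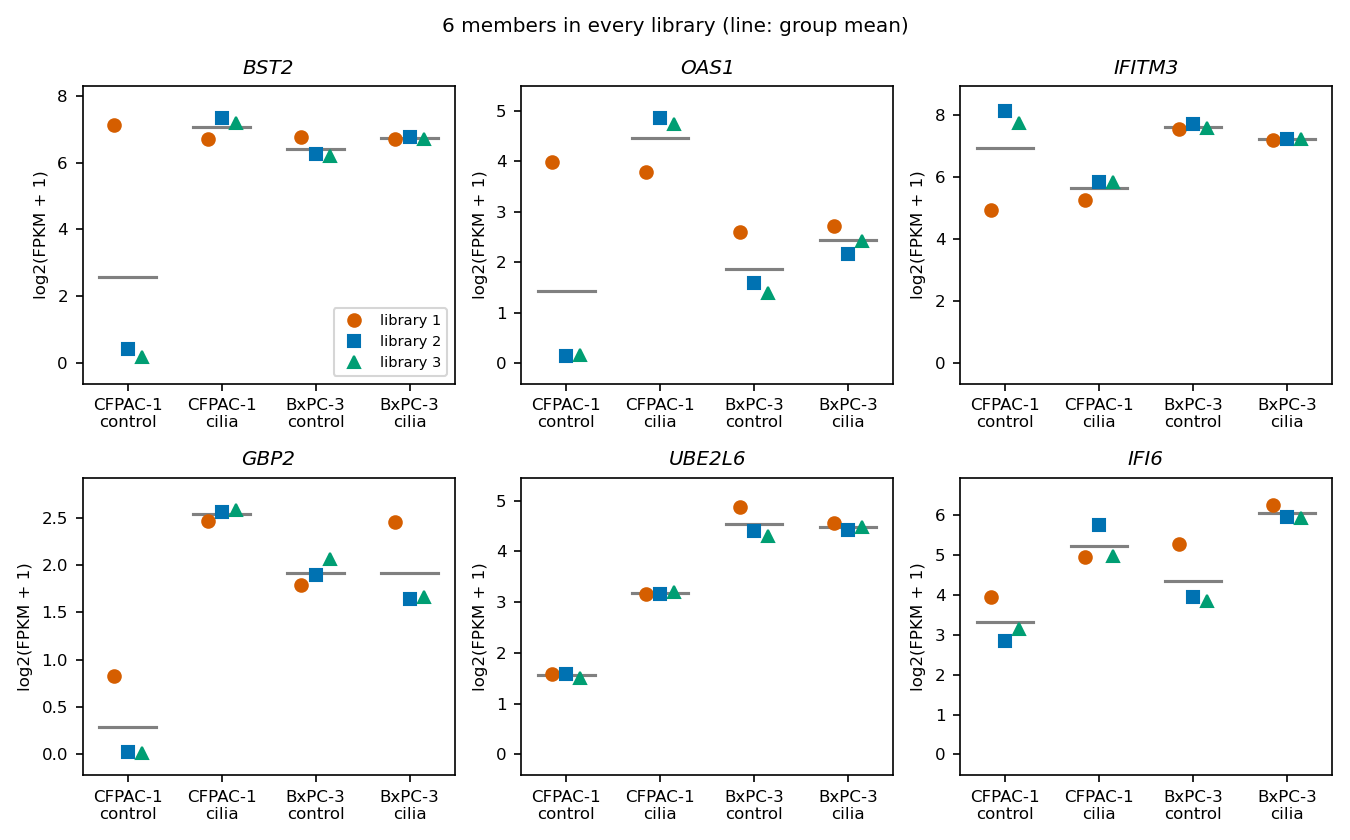
Levels of 6 members in log2(FPKM + 1) in every library of the 4 groups, with colour and shape for the library number and a grey line at the group mean. In CFPAC-1 control, library 1 stands apart from libraries 2 and 3 for BST2, OAS1 and IFITM3, whereas the 3 controls lie together for UBE2L6.

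The 3 sensors of viral RNA did not pass. DDX58, which encodes RIG-I, had 2.46, 4.69 and 4.801 FPKM in the controls and 6.95, 3.84 and 5.99 FPKM in the cilia libraries, with overlap (change 0.41, adjusted p = 0.293). IFIH1, which encodes MDA5, and the helicase DDX60 had changes of 0.39 and 0.70. Among the remaining members, IFIT1 (0.06), IFIT2 (0.26), PARP9 (0.17), PARP14 (0.22), SAMD9 (0.66) and MX2 (0.03) did not pass either.

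Counted without a fit, every CFPAC-1 cilia library lay above every control in 12 of the 34 members, beside 14.0% of all tested genes, and below in 0, beside 17.6%. The 12 were GBP1, GBP2, HERC6, IFI27, IFI44, IFI6, IFIT3, IRF7, IRF9, OAS2, PSMB9 and UBE2L6. BST2 and OAS1 had the 2 largest changes and were not among them.

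**Figure D3:**
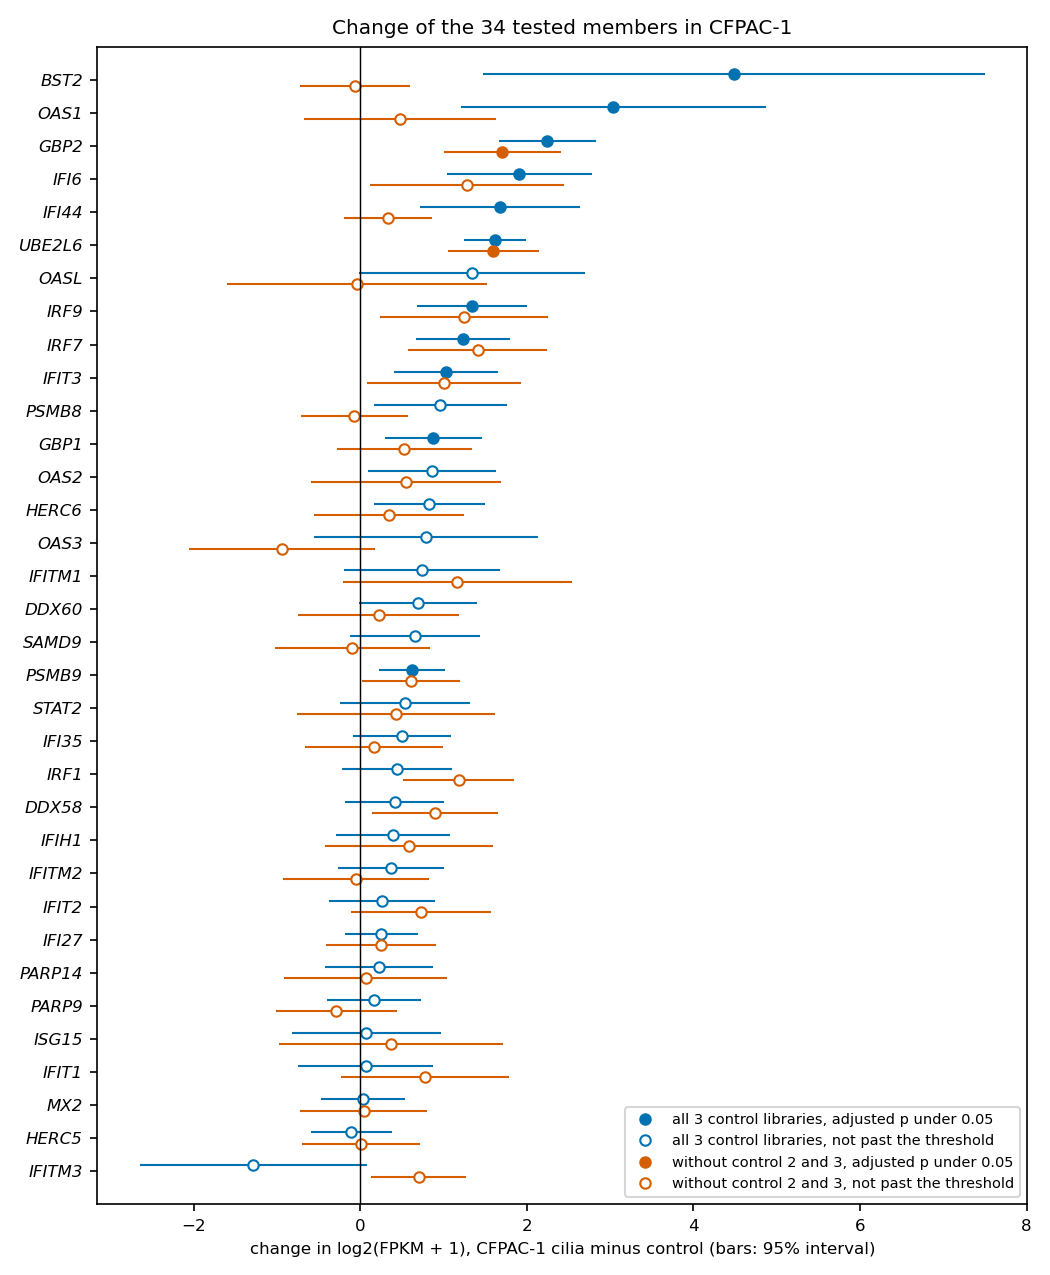
Change of each of the 34 tested members in CFPAC-1, cilia minus control, in log2(FPKM + 1) with its 95% interval, with all controls (blue) and without control 2 and 3 (orange), filled where the adjusted p was under 0.05. BST2 goes from 4.49 to -0.06 and IFITM3 from -1.29 to 0.70, while UBE2L6 stays at 1.62 and 1.60.

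Set beside the other controls, CFPAC-1 control 1 was at least 1 log2 unit above both in 7 of the 34 members, beside 10.7% of all tested genes, and at least 1 below both in 3, beside 10.2%. The 7 were BST2 (by 6.83 against their mean), OAS1 (3.84), OAS3 (2.60), OASL (2.07), IFI44 (2.02), PSMB8 (1.55) and SAMD9 (1.13). The 3 were IFITM3 (-2.98), IRF1 (-1.12) and IFIT1 (-1.07). For UBE2L6 (0.03), IFIT3 (0.04) and PSMB9 (0.02), control 1 was near the mean of control 2 and 3. In 17 of the 34 members control 1 was nearer to the mean of the cilia libraries than to control 2 and 3, beside 61.5% of all tested genes.

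In BxPC-3, 0 of the 34 members passed by limma, beside 0.295% of all tested genes that rose and 0.0389% that fell. By the same limma test 3 members had an unadjusted p under 0.05. The share of all tested genes at that unadjusted threshold is not given here, so the 3 cannot be set against it. The median change was 0.25 against 0.06 over all genes, and 25 of 34 changes were positive, beside 59.1% of all tested genes. With so few calls among all genes, the count of 0 says little about these members.

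IFI6 had the largest change in BxPC-3. The controls had 37.2, 14.3 and 13.3 FPKM and the cilia libraries 74.9, 60.7 and 59.8 FPKM, without overlap. The mean went from 21.6 ± 13.5 (SD, n = 3) to 65.1 ± 8.46 FPKM (SD, n = 3), a change of 1.70 (0.83 to 2.56) with a limma adjusted p of 0.169. Without BxPC-3 control 1 the change was 2.15 and passed (adjusted p = 0.012). IFI6 was the 1 member of 34 with every cilia library above every control, beside 12.4% of all genes. IFITM2 and IFITM3 were the 2 with every cilia library below, beside 4.84% of all genes. The count above is under the share of all genes and the count below is near it, so neither sets the members apart.

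IFITM3 was the most abundant member in BxPC-3, with 183, 206 and 188 FPKM in the controls and 145, 147 and 148 FPKM in the cilia libraries. Its change of -0.39 (-1.75 to 0.97, adjusted p = 0.946) has an interval set by a spread pooled over all 4 groups, CFPAC-1 control included. IFITM2 had 17.5, 25.7 and 25.6 FPKM and then 16.2, 13.5 and 12.5 FPKM (change -0.65, adjusted p = 0.565). IFITM1, which varied more between libraries, had a change of -0.72 (adjusted p = 0.707). HERC5, the other member with an unadjusted p under 0.05 beside IFI6 and IFITM2, had 2.402, 1.18 and 1.14 FPKM and then 1.77, 2.97 and 3.11 FPKM (change 0.50, adjusted p = 0.565).

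UBE2L6 and GBP2 overlapped between the BxPC-3 groups. UBE2L6 had 28.5, 20.2 and 18.8 FPKM in the controls and 22.4, 20.3 and 21.3 FPKM in the cilia libraries (change -0.05, -0.42 to 0.32). GBP2 had 2.45, 2.72 and 3.17 FPKM and then 4.48, 2.11 and 2.15 FPKM (change 0.00, -0.58 to 0.59). ISG15 and BST2 also overlapped. BST2 had 107, 75.6 and 73.1 FPKM in the controls and 104, 109 and 103 FPKM in the cilia libraries, and ISG15 had 97.6, 55.3 and 48.1 FPKM and then 36.9, 74.3 and 74.2 FPKM. For ISG15, library 1 was thus the highest control and the lowest cilia library.

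The same inversion was seen for OASL, with 41.4, 19.2 and 18.1 FPKM in the controls and 15.4, 20.3 and 19.8 FPKM in the cilia libraries. IFIT3 had 11.9, 6.26 and 6.84 FPKM and then 9.11, 10.9 and 13.3 FPKM, DDX58 had 3.31, 2.1003 and 1.72 FPKM and then 3.19, 3.42 and 4.4996 FPKM, and IRF1 had 10.8, 6.14 and 6.05 FPKM and then 9.33, 10.4 and 10.4 FPKM. In each of these 3, control 1 was the highest control. PSMB8 also had its highest control in library 1, with 16.96, 10.97 and 10.3 FPKM and then 13.1, 16.4 and 17.2 FPKM.

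In BxPC-3 control, library 1 was above libraries 2 and 3 in 27 of the 34 members, beside 47.7% of all tested genes, with a median difference of 0.64 against 0.05. In BxPC-3 cilia the count was 19, beside 51.2%, and in CFPAC-1 cilia 12, beside 49.5%. The members more than 1 log2 unit higher in BxPC-3 control 1 were IFI6 (1.37), OAS2 (1.24), OAS3 (1.23), OASL (1.11), OAS1 (1.11), HERC6 (1.10) and IFIT1 (1.04), so all 4 genes of the 2-5A synthetase family were among them. The labels give no batch or date, and what sets this library apart was not tested.

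Taken within library numbers, the median change of the 34 members in BxPC-3 was -0.04 within number 1 (15 positive) and 0.46 over numbers 2 and 3 (26 positive), while over all tested genes it was 0.09 and 0.05. Same-numbered control and cilia libraries were not taken as paired, so the change within number 1 is a single library minus another. ISG15 had -1.38 within number 1 and 0.52 over the others, OASL -1.37 and 0.10, and IFIT1 -0.28 and 1.04. IFI6 was positive in both, at 0.99 and 2.05. In CFPAC-1 the medians were 0.32 within number 1 (24 positive) and 0.82 over numbers 2 and 3 (28 positive). Over all tested genes they were 0.01 and -0.13 in CFPAC-1, and UBE2L6 had 1.58 and 1.63.

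**Figure D4:**
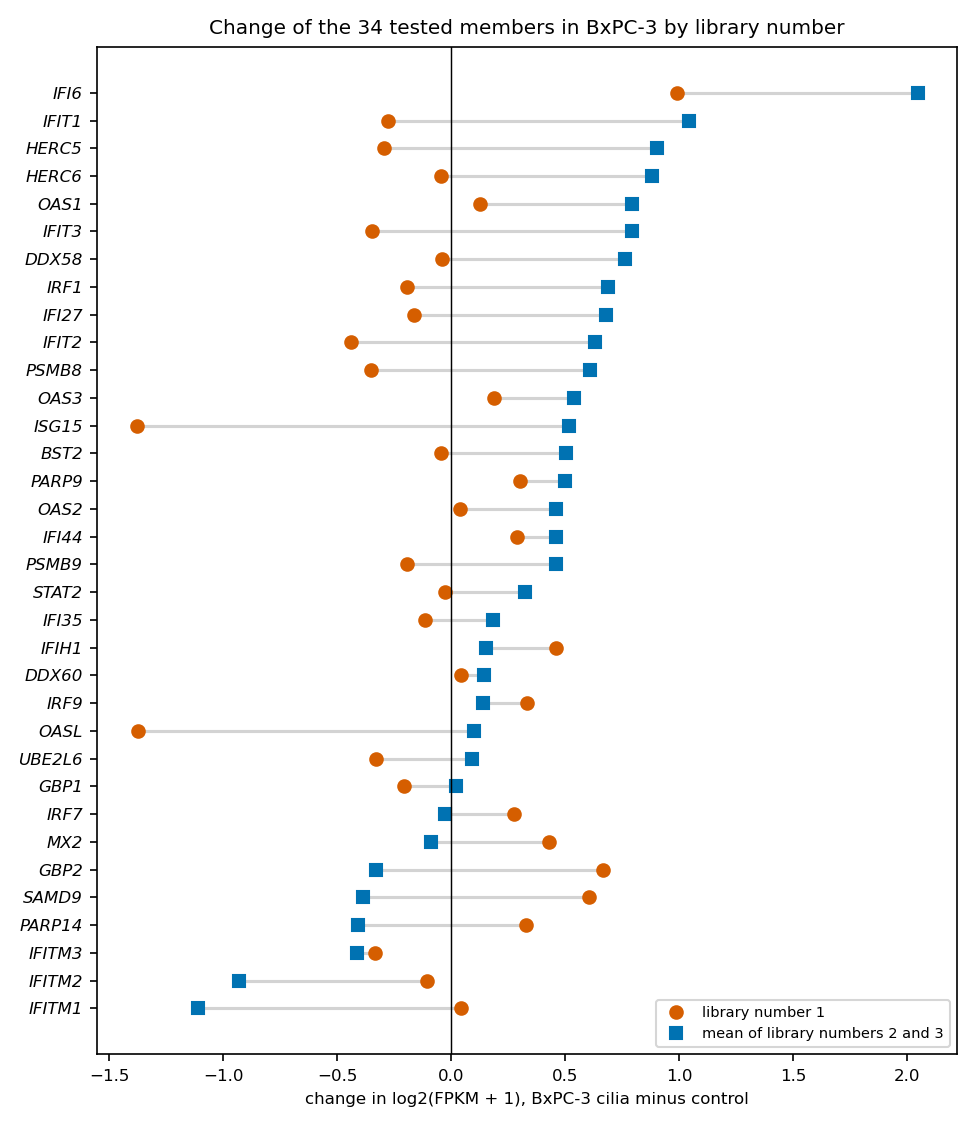
Change of each of the 34 tested members in BxPC-3, cilia minus control, in log2(FPKM + 1), within library number 1 and as the mean of numbers 2 and 3. ISG15 lies at -1.38 and 0.52, and IFI6 is positive in both, at 0.99 and 2.05.

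The changes in the lines were then compared directly, as BxPC-3 change minus CFPAC-1 change. GBP2 and UBE2L6 passed, both with the smaller change in BxPC-3, beside 1.11% of all tested genes, and 0 members passed in the other direction, beside 1.34%. The difference was -2.24 (-3.07 to -1.42, adjusted p = 0.02) for GBP2 and -1.67 (-2.19 to -1.14, adjusted p = 0.0153) for UBE2L6. Without CFPAC-1 control 2 and 3, 0 members passed by limma and 5 had an unadjusted p under 0.05, beside 0.249% of all genes called lower and 0.179% called higher. The differences were then -1.70 (adjusted p = 0.0884) and -1.65 (adjusted p = 0.051). For BST2 the difference was -4.17 (-8.42 to 0.09) with all libraries and 0.38 (-0.42 to 1.19) without those 2. For the 5 members at an unadjusted p under 0.05, the share of all tested genes at that threshold is not given here. The 9 other members called in CFPAC-1 are not shown to change differently in BxPC-3.

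More members differed between the lines than changed with starvation, and the same was true of all tested genes. In control culture 15 members were higher in BxPC-3 and 1 (IRF7) was lower, beside 13.1% of all tested genes in each direction. In the cilia groups 12 were higher and 4 (IRF7, IFITM2, IFI35 and PSMB9) were lower, beside 21.4% and 14.8%, so the 4 are not above the share of all genes. These comparisons use different libraries, and 13 of the 16 members called in each (81.25% of each) were called in both in the same direction. Without CFPAC-1 control 2 and 3 the counts were 13 higher and 3 lower in control, beside 13.8% and 13.7%, and 15 higher and 6 lower in the cilia groups, beside 25.7% and 18.3%. In control, 12 of the 16 calls were shared with and without those libraries. All 16 of the cilia groups were also called without them. With the library number as a replicate block, 17 were higher and 2 lower in control, beside 13.9% and 14.1%, where STAT2 (0.80, adjusted p = 0.0266), SAMD9 (0.98, adjusted p = 0.0133) and IFI35 (-0.77, adjusted p = 0.0371) joined the calls. In the cilia groups 11 were higher and 4 lower with the block, beside 22.3% and 15.7%, and IFIT3 (0.81) lost its call (adjusted p = 0.0443 without and 0.0564 with the block).

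IFI27, a mitochondrial protein that interferon induces in epithelia, differed most between the lines in the cilia groups. BxPC-3 had 22.96, 16.6 and 14.2 FPKM in control and 20.4, 23.6 and 26.7 FPKM in the cilia group, whereas CFPAC-1 had 0.0495, 0.0458 and 0.0459 FPKM and 0.112, 0.482 and 0.172 FPKM. No library of a line reached the other line's range. The difference was 4.15 (adjusted p = 6.38e-08) in control and 4.29 (adjusted p = 4.66e-08) in the cilia groups. MX2, a GTPase that blocks nuclear entry of some viral genomes, had the same shape at a lower level, with 3.52 to 7.74 FPKM in BxPC-3 and at most 0.0475 FPKM in CFPAC-1 (differences 2.48 and 2.54).

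On log2(FPKM + 1), IFITM1 had the largest difference in control. That scale shrinks the differences of genes of low FPKM in CFPAC-1, such as IFI27 and MX2, more than that of IFITM1. BxPC-3 had 76.9, 121 and 64.6 FPKM in control and 79.3, 53.9 and 30.3 FPKM in the cilia group, and CFPAC-1 had 1.06, 2.104 and 2.298 FPKM and 1.53, 4.93 and 5.61 FPKM. The difference was 4.95 (adjusted p = 7.94e-06) in control and 3.48 (adjusted p = 0.00011) in the cilia groups. OAS2 ranged over 3.83 to 10.9 FPKM in BxPC-3 and 0.0287 to 1.48 FPKM in CFPAC-1 (differences 2.49 and 1.94). GBP1 had 3.73, 6.03 and 6.25 FPKM in BxPC-3 control and 3.09, 6.31 and 6.19 FPKM in BxPC-3 cilia, against at most 1.21 FPKM in CFPAC-1 (differences 2.46 and 1.53). All of these were called in both comparisons, and their libraries did not overlap between the lines.

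UBE2L6 was higher in BxPC-3 by 2.97 in control and by 1.31 in the cilia groups, both called. OASL was higher by 2.76 in control (adjusted p = 0.00711), by 1.03 in the cilia groups (adjusted p = 0.221), and by 1.38 in control without CFPAC-1 control 2 and 3 (adjusted p = 0.174). IFI44 was higher by 2.25 in control, where BxPC-3 had 9.29, 7.302 and 7.77 FPKM, and by 0.98 (adjusted p = 0.103) in the cilia groups, where it had 11.6, 12.4 and 9.24 FPKM. HERC5 was higher by 0.84 and 1.45, both called.

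IRF7 went the other way. BxPC-3 had 0.0738, 0.0216 and 0.0346 FPKM in control and 0.3002, 0.01597 and 0 FPKM in the cilia group, whereas every CFPAC-1 library had between 2.86 and 15.3 FPKM. The difference was -2.06 (adjusted p = 0.000136) in control and -3.23 (adjusted p = 4.02e-06) in the cilia groups. OAS1, with 5.62, 3.48 and 4.33 FPKM in BxPC-3 cilia, was below every CFPAC-1 cilia library, but the difference of -2.03 did not pass (adjusted p = 0.079). Without CFPAC-1 control 2 and 3 it did (adjusted p = 0.00144), and in control OAS1 (-2.12, adjusted p = 0.0129) and OAS3 (-2.03, adjusted p = 0.0137) were then also called lower. BST2 differed by 3.83 in control (adjusted p = 0.061), by -0.72 without those libraries (adjusted p = 0.0965), and by -0.34 in the cilia groups (adjusted p = 0.871). ISG15 did not pass in either comparison, at 0.21 (-0.68 to 1.10) and 0.02 (-0.87 to 0.92).

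**Figure D5:**
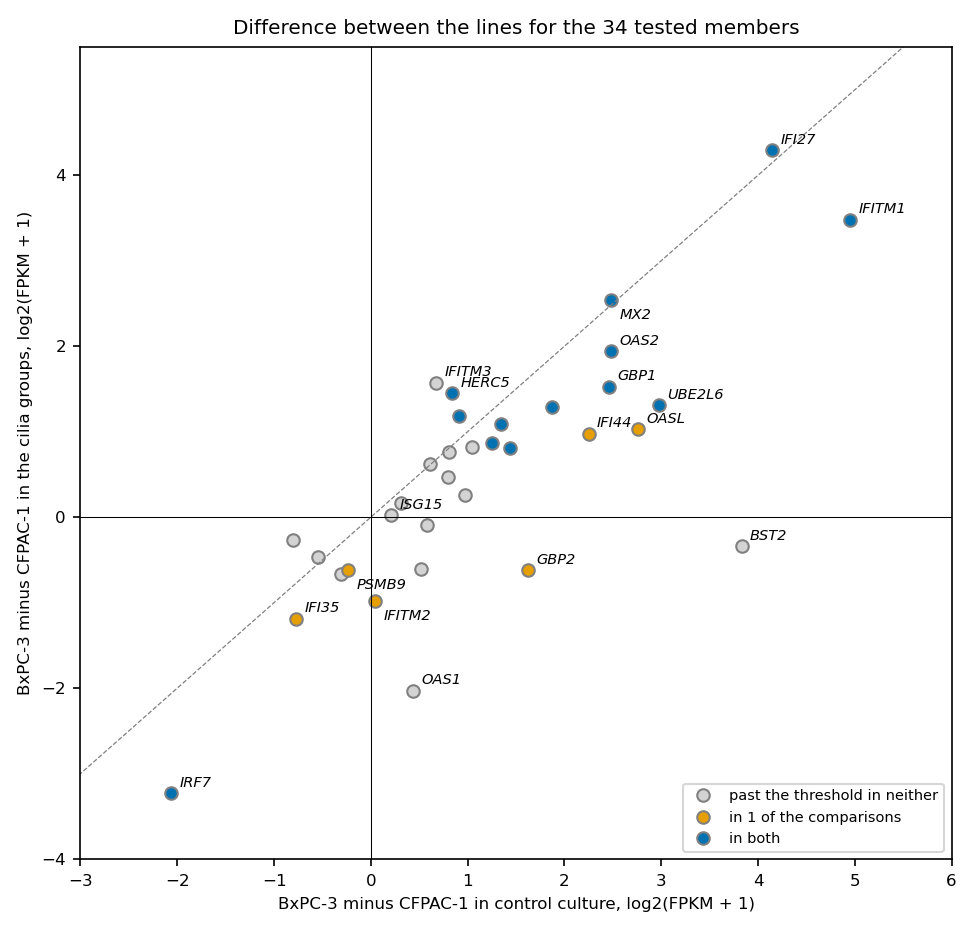
Difference between the lines, BxPC-3 minus CFPAC-1, for the 34 tested members in log2(FPKM + 1), with the control comparison on the horizontal axis and the cilia comparison on the vertical axis. IFI27 lies at 4.15 and 4.29, MX2 at 2.48 and 2.54, IRF7 at -2.06 and -3.23, and BST2 at 3.83 and -0.34.

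The 5 members that were not tested were low in every library. MX1, the classical antiviral GTPase, reached at most 0.139 FPKM in CFPAC-1 and 0.9298 FPKM in BxPC-3, and RSAD2, or viperin, 0.179 and 0.432 FPKM. Both are strongly inducible by type I interferon, and both were under 1 FPKM in all 12 libraries. IFI44L reached 0.281 FPKM in CFPAC-1 and 1.04 FPKM in BxPC-3, XAF1 0.185 and 1.29 FPKM, and EPSTI1 0.219 and 1.12 FPKM. These 3 were listed at 0 in CFPAC-1 control 2 and 3 and were highest in BxPC-3 cilia.

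The genes around the members in the pathway were read from 5 lists. Of 15 receptor and ligand genes, the 9 interferon genes were all under 0.6 FPKM in every library. IFNL1, a type III interferon, had 0.207, 0.587 and 0.516 FPKM in BxPC-3 control and 0.0634, 0 and 0 FPKM in BxPC-3 cilia. Of the 6 receptor genes tested, IL10RB, a chain of the type III receptor, rose in CFPAC-1 (0.81, adjusted p = 0.042), beside 7.85% of all tested genes. Of 15 tested genes of JAK-STAT signalling and its inhibitors, 0 rose in CFPAC-1 and 2 fell, beside 7.85% and 8.77% of all tested genes. In a list of this size both counts are near those shares and say little about it. The phosphatase PTPN1 (-0.51, adjusted p = 0.0498) was among the 2 that fell.

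In nucleic acid sensing, 4 of 14 tested genes rose in CFPAC-1 and 2 fell, beside 7.85% and 8.77% of all tested genes, so the 2 that fell are near the background. IFI16 (2.04), TMEM173 (1.70), which encodes STING, TRIM25 (1.00) and DHX58 (0.96) rose, and MB21D1 (-0.99), which encodes the DNA sensor cGAS, and the kinase TBK1 (-0.80) fell. TMEM173 had 8.80, 1.18 and 1.48 FPKM in the controls and 7.49, 14.3 and 12.9 FPKM in the cilia libraries, with control 1 above cilia 1. TBK1 had 2.00, 4.27 and 4.46 FPKM and then 2.02, 1.33 and 1.33 FPKM, with cilia 1 above control 1. The groups did not overlap for TRIM25, DHX58 and MB21D1. Among 28 tested other interferon-stimulated genes 9 rose and 0 fell, led by APOL1 (3.94), LGALS3BP (2.83), APOL2 (2.40) and PARP10 (1.86). LGALS3BP, a secreted glycoprotein, had 122, 7.91 and 7.91 FPKM in the controls and 114, 181 and 165 FPKM in the cilia libraries, and like BST2 was low in control 2 and 3 alone.

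Class I antigen presentation had 9 of 14 tested genes higher in CFPAC-1 and 0 lower, beside the same 7.85% and 8.77% of all tested genes, with HLA-B (2.88), HLA-F (1.60) and HLA-E (1.43) among others. HLA genes are alike in sequence, so their single values are uncertain. Without control 2 and 3, 2 genes of the 5 lists passed, beside 1.06% of all genes that rose, both of class I presentation, among them HLA-E (1.88, adjusted p = 0.00679). In BxPC-3, 0 genes of the 5 lists passed by limma, beside 0.295% of all genes that rose. An unadjusted limma p under 0.05 was found for 1 gene of sensing, 3 other interferon-stimulated genes and 5 of class I presentation. The share of all tested genes at that unadjusted threshold is not given here, so these counts cannot be set against it. HLA-B had 16.9, 8.62 and 7.54 FPKM in BxPC-3 control and 28.996, 41.6 and 39.8 FPKM in BxPC-3 cilia (change 1.72, adjusted p = 0.251, and 0.0305 in the fit without CFPAC-1 control 2 and 3).

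Some markers of other cells rose in CFPAC-1 and others did not. The immune list and the fibroblast and endothelial list each had 2 tested genes. Their changes were 2.16 and -1.29 for the immune markers, and 4.30 and -1.48 for the fibroblast and endothelial markers. In each list 1 rose at a limma adjusted p under 0.05 and 0 fell. The summed level of 16 immune cell markers was 11.1 to 13.7 FPKM in CFPAC-1 control and 41.8 to 49.2 FPKM in CFPAC-1 cilia, where CD68, a lysosomal protein that epithelial cells can also make, gave 37.1 to 47.8 FPKM. In BxPC-3 the sum was 5.96 to 6.72 FPKM in control and 9.699 to 13.6 FPKM in cilia. PTPRC, the pan-leukocyte marker, was at most 0.00981 FPKM, and MS4A1 and FCGR3A were at 0 in all 12 libraries. The summed level of 11 fibroblast and endothelial markers was 7.99 to 37.5 FPKM in CFPAC-1 control and 26.3 to 110.7 FPKM in CFPAC-1 cilia, with LUM, a matrix proteoglycan, at 36.8, 0.0532 and 0 and then 25.5, 108 and 103 FPKM, and under 2 FPKM in BxPC-3. LUM was thus low in the same CFPAC-1 libraries as BST2 and OAS1, and its part in the results was not tested. Of the 11 markers, 7 were under 1 FPKM in every CFPAC-1 control library and 10 in every CFPAC-1 cilia library, so the sums rest on few genes.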

How the data were processed

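RNA-seq of 12 libraries came as 1 table. Its header and value range show that the authors deposited log2-transformed FPKM with 1 added, per the file headers, and FPKM was recovered by reversing the log2 step. FastQC, StringTie and GRCh38 appear in the submitters' processing notes. Which aligner and annotation were used, and whether strand was, is not given in the sources used here. Columns were matched to samples by title, and member coordinates come from GENCODE release 29 (GRCh38).

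Genes at 1 FPKM or more in at least 3 libraries (12860) were fitted with limma 3.58.1 (R 4.3.3) on log2(FPKM + 1), with 4 group means over 12 libraries, 8 residual degrees of freedom and Benjamini-Hochberg adjustment over all of them. The script was tested on simulated data. Members and lists were chosen with earlier results of these data known. Given in full are the member of highest mean FPKM per role group and, per comparison, up to 8 members of largest change among those past the threshold; of each pathway list, genes past the threshold with the largest changes are named, and some genes of these lists are not reported here. Alternatives were another offset, other filters and scalings, a replicate block, and leaving out libraries.

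Library numbers recur across groups. Deviations of same-numbered libraries from their group means were correlated between the lines. The values were 0.162, 0.119 and 0.119 in control and 0.287, 0.275 and 0.125 in the cilia groups. Number 2 of 1 line with number 3 of the other gave 0.124 and 0.116 in control, and 0.181 and 0.139 in the cilia groups. The values thus set library 1 apart from 2 and 3 and do not show pairing by number. The block is an alternative only. The fit without the block is the reported one, and the blocked values stand beside it where a call changes. Between control and cilia the same-numbered values were -0.0617, -0.0198 and -0.0798 in CFPAC-1 and 0.151, 0.11 and 0.0535 in BxPC-3. These libraries were not taken as paired either. Without read counts, counting error is unknown.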

Additional observations from a re-analysis of the deposited data

Results flagged for a closer look

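The change with starvation differed between the lines, by limma's test of the difference, for 2 members. BxPC-3 minus CFPAC-1 was -2.24 for GBP2 (adjusted p = 0.02, and 1.92e-04 to 0.0884 over the alternatives) and -1.67 for UBE2L6 (adjusted p = 0.0153, and 4.81e-04 to 0.0642 over the alternatives). In CFPAC-1 all 3 cilia libraries were above all 3 controls for both genes, and in BxPC-3 the groups overlapped for both. Neither difference passed without CFPAC-1 control 2 and 3 together, nor on leaving out any 1 of CFPAC-1 control 2, CFPAC-1 control 3, BxPC-3 control 2, BxPC-3 cilia 2 and BxPC-3 cilia 3.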

How the results depend on the processing

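Of the 11 members called in CFPAC-1, counts under other settings were 6 with a mean FPKM of at least 5 (16 members tested), 6 with no filter, 2 without control 2 and 3 and 2 with only the groups compared. Leaving out 1 library gave 3 to 18 calls: 18 without CFPAC-1 control 1 (17 higher, 1 lower), 3 without control 2 or control 3, 4 without cilia 2 or cilia 3, and 7 without BxPC-3 control 2 or cilia 3. GBP2 and UBE2L6 passed in CFPAC-1 under every alternative in which they were tested; with a mean FPKM of at least 5, GBP2 was not tested. BST2 reversed to -0.0625 without control 2 and 3; with only the groups compared its adjusted p was 0.201. In BxPC-3 leaving out 1 library gave 0 to 1 calls, the 1 being IFI6 without control 1. The 2 differences between the lines became 1 with an offset of 0.1, 1 with a mean FPKM of at least 5 and 0 without control 2 and 3, and 0 to 11 on leaving out 1 library, 11 without CFPAC-1 control 1 and 0 without CFPAC-1 control 2 or 3, BxPC-3 control 2, or BxPC-3 cilia 2 or 3. Counts between the lines fell from 16 to 6 in control and to 6 in the cilia groups with a mean FPKM of at least 5, which tests fewer members; leaving out 1 library gave 15 to 23 and 12 to 21. Among the single genes called in CFPAC-1, 29 values lost their call, 1 reversed and 64 kept it under the settings that leave out no single library, and 49 lost and 83 kept it on leaving out 1. Shares of all tested genes are given for the main fit and for the fit without CFPAC-1 control 2 and 3. With the replicate block they are given between the lines only. The other counts have no such share beside them. They show how calls move with the settings and cannot be set against all genes. The cause of the other moves was not tested.

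With library number as a replicate block, 12 members were called in CFPAC-1 (10 of the 11, with GBP1 lost at an adjusted p of 0.0536 and DDX60 and HERC6 gained at 0.0131 and 0.0261), 0 in BxPC-3, 2 in the difference, 19 between the lines in control and 15 in the cilia groups. The calls that differed between the lines are given with those results, and no count moved by over 1.5 times. FPKM gives no read depth, so precision at low levels is unknown.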
